A study of Mus musculus with 24 samples.

Results

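Hindleg skeletal muscle of newborn mice whose mothers ate a low protein diet was compared with that of newborns whose mothers ate a normal protein diet, neither with taurine. The comparison holds 6 of the 24 arrays of the study, 3 per maternal diet, chosen by the tissue and diet in the sample labels, and 18193 genes were measured on each. The study read total RNA of liver and of hindleg muscle of newborn C57BL/6 pups on Affymetrix mouse arrays, with 3 arrays for each tissue and maternal diet. The dams received their diet from day 1 of pregnancy until birth. The low protein diet (LP) held 8% casein and the normal protein diet (NP) 20% casein, neither with taurine. A second pair of groups received the same diets with 1% taurine in the drinking water (LPtau and NPtau). The pups were killed on the day of birth, day 0. The labels call the arrays of a group biological replicates and give no dam or litter for a pup. Each SE and p-value for LP against NP in muscle rests on the spread within the 4 diet groups of all 12 muscle arrays. Those include the taurine groups, and part of the spread may be technical. The values are log2 expression values, in which a difference of 1 is a 2-fold change.

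Skeletal muscle is built of multinucleated fibres that are slow or fast according to the myosin they contain. At birth the limb muscles of a mouse still contain mostly embryonic and perinatal myosins, and adult fast myosins, fast calcium-handling proteins and the adult muscle isoforms of mitochondrial and translation proteins replace their fetal partners as the muscle matures. Fibre formation in the embryo and the later repair of muscle also depend on signals such as hedgehog, which acts through the receptor Ptch1 and the transcription factors of the Gli family.

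The arrays carried muscle RNA. Acta1, the skeletal muscle actin, was at 14.64 to 14.79 in LP and 14.83 to 14.88 in NP arrays, against an array median of 4.96 to 5.04 in LP and 4.96 to 4.98 in NP. Myh8 and Myh3, the perinatal and embryonic myosin heavy chains, were at 13.21 or more on each of the 6 arrays. LP replicate 1 stood apart, with a mean correlation of 0.966 with the other LP arrays, against 0.977 for each of LP replicates 2 and 3 and 0.990 or 0.991 for the NP arrays. It carried genes of skin: the mean of 16 genes of skin epithelium was 4.45 above the NP mean in LP replicate 1, and -0.48 and -0.57 in LP replicates 2 and 3, against 1.20, -2.08 and 0.88 in the NP arrays. None of those 16 genes was called and none separated the groups. The mean of 20 cartilage genes was 2.36, 2.46 and -0.77 in LP arrays, against -0.67, 0.25 and 0.42 in NP arrays. The mean of 10 bone genes was highest in LP replicate 2 (1.85) and NP replicate 2 (1.29), that of 12 hepatocyte genes in LP replicate 3 (1.65), and that of 10 tendon genes was lowest in LP replicate 3 (-1.69). Read from Xist and Y-linked genes, 2 of 3 LP pups and 1 of 3 NP pups were female. The part of these differences in the results was not tested, and values without LP replicate 1, or without another array, are given beside the list medians that move most with it. In whole tissue, fewer cells of a type and less RNA per cell cannot be told apart.

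**Figure D1:**
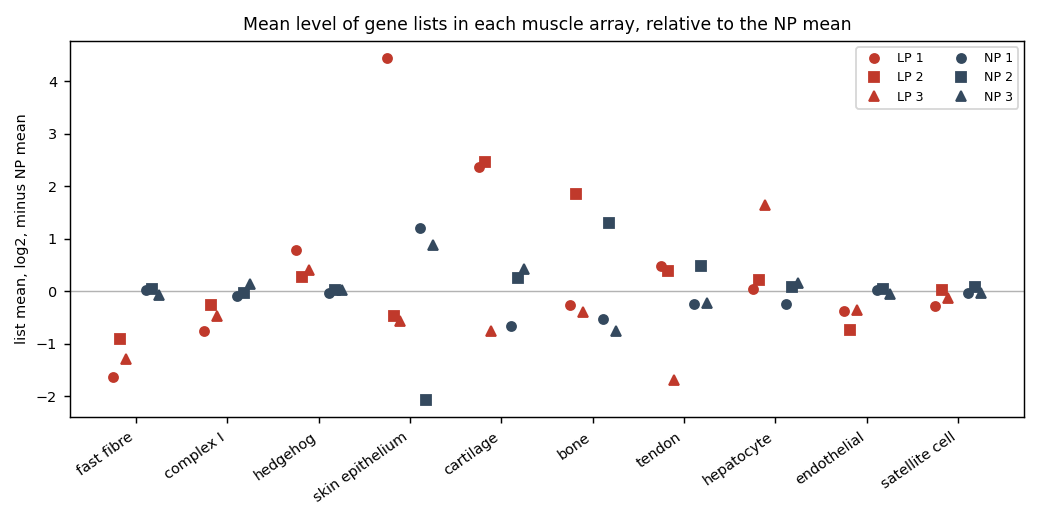
Mean log2 level of 10 gene lists in each of the 3 LP and 3 NP muscle arrays, relative to the NP mean of the list. The LP arrays lie below the NP arrays for fast fibre and complex I genes and above them for hedgehog genes, while skin epithelium genes are highest in LP replicate 1.

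A small set of genes was called between LP and NP newborn muscle, most of them lower in LP and several of them genes of adult muscle. An adjusted p under 0.05 with limma was reached by 23 genes, which is 0.126% of the 18193 tested. Of these, 19 fell (0.104%) and 4 rose (0.022%) in LP. In all 23 the 3 LP values lay on one side of the 3 NP values, which held for 19.6% of all genes (11.6% lower and 7.99% higher in LP). Over all genes 47.6% of the differences were positive and 52.4% negative. At an unadjusted p under 0.05 there were 1957 genes (10.8%), 1131 lower and 826 higher. The 19 that fell were Pvalb, Mybpc2, Tspan15, Cox7a1, Actn3, Shisa4, Higd1b, Azin1, Eef1a2, Kcna5, Abra, Cyp27a1, Asb11, Lipt1, Frat2, C1qtnf9, Pacsin3, Lcmt2 and Fxyd1. The 4 that rose were Gli1, Mylip, Cpsf6 and Mbnl3. Without LP replicate 1, 49 genes passed, among them 16 of the 23. The count was small and moved with the arrays used: it was 2 without either NP replicate 2 or NP replicate 3, 3 without NP replicate 1, 12 without LP replicate 3, and 126 without LP replicate 2. With the sex of the pup as a covariate it was 5, in a fit of the 6 LP and NP arrays alone 14, and with the replicate number as a block 2. No gene was called higher in any of these fits or without any 1 of the NP replicates. Pvalb and Mybpc2 passed in each of the 16 alternatives in which they were tested.

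Promoter sequence is printed for 3 of the genes that fell, all of them markers of adult fast or oxidative muscle, so that the elements in them can be read beside the values. Each line gives the 250 bases before a transcription start, 5′ to 3′ on the strand of the gene, from RefSeq on GRCm38.p6, with capitals marking matches to an E-box (CANNTG, the element bound by MyoD and related factors) or to the MEF2 site.
Mybpc2, chr7:44524670-44524919, minus strand: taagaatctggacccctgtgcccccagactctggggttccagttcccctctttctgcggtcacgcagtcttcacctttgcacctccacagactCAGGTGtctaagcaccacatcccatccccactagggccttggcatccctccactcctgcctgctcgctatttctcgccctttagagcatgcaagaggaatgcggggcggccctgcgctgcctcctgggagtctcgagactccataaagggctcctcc
Pvalb, upstream start, chr15:78206401-78206650, minus strand: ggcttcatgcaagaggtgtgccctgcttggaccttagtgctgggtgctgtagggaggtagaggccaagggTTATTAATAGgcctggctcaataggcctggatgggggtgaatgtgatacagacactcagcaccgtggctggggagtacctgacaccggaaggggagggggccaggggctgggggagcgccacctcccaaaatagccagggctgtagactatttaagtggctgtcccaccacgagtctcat
Pvalb, downstream start, chr15:78204238-78204487, minus strand: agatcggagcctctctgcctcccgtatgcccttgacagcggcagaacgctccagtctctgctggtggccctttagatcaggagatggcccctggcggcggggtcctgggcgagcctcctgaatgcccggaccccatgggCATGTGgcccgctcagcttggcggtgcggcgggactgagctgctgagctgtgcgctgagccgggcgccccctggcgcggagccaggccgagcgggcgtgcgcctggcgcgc
Cox7a1, chr7:30183921-30184170, plus strand: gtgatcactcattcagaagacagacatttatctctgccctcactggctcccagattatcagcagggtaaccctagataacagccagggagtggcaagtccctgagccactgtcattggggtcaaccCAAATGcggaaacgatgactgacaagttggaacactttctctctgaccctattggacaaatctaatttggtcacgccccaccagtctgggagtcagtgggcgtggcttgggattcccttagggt

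The table held promoters for 18 of the 23 called genes, in 22 windows of this length. Matches were sought on both strands to CANNTG, to the MEF2 site and to the CArG box, and a match of one kind was counted whether or not it overlapped another. The window of Mybpc2 held an E-box 157 bases before the start, that of the downstream Pvalb start held an E-box 111 bases before it, and that of Cox7a1 held an E-box 124 bases before it. The window of the upstream Pvalb start held a MEF2 site 180 bases before the start. An E-box was in 14 of the 22 windows, which is near the 66.2% of 32851 windows of all promoters in the table. It was in 14 of the 19 windows of genes that fell and 0 of the 3 windows of genes that rose. A MEF2 site was in 1 of the 22 windows, against 2.92% of all, and a CArG box in 0 of the 22, against 1.47% of all. These matches are letters in a window and say nothing of binding.

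Fast fibre genes were lower in LP muscle, led by calcium-handling and thick-filament genes of the fastest fibres. Mybpc2, the fast isoform of myosin-binding protein C, was at 6.23, 6.78 and 5.79 in LP arrays, against 10.82, 10.75 and 10.72 in NP arrays. Its groups were far apart and it fell by 4.50, a 22.6-fold lower level (SE 0.40, n = 3 per diet; adjusted p = 0.00228 with limma). Pvalb, the calcium buffer parvalbumin that speeds relaxation of fast fibres, was at 4.91, 6.01 and 4.93 in LP arrays, against 9.64, 9.48 and 9.17 in NP arrays. It fell by 4.14 (SE 0.32; adjusted p = 0.000987 with limma), and 2 of the LP values lay below the array median. Actn3, the alpha-actinin of the Z-disc of fast fibres, was at 8.52, 10.01 and 9.07 in LP arrays, against 12.22, 12.15 and 12.17 in NP arrays. It fell by 2.98 (SE 0.37; adjusted p = 0.0211 with limma), and LP replicate 2 was nearest to NP in all 3 of these genes.

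Of 19 measured genes of fast fibre contraction and calcium handling 3 fell, 0 rose and 16 did not pass. All 19 had a negative difference, with a median of -0.81 against -0.01 over all genes, and in 17 of 19 (89.5%) the LP values lay below the NP values, against 11.6% of all genes. The adult fast myosin heavy chains did not pass over all genes. Myh4, the myosin of the fastest fibres, was at 5.37, 6.17 and 6.07 in LP arrays, against 8.63, 7.31 and 7.48 in NP arrays (-1.94, SE 0.41; adjusted p = 0.0976 with limma). Myh1, the fast 2X myosin, was at 8.71, 8.84 and 8.47 in LP arrays, against 9.996, 10.64 and 10.23 in NP arrays (-1.61, SE 0.36; adjusted p = 0.110 with limma). Myh2, the fast 2A myosin, differed by -1.60 (SE 0.46). In each of these 3 myosins the LP values lay below the NP values. Pgam2, the muscle phosphoglycerate mutase, differed by -1.05 and Mylk2, the skeletal myosin light chain kinase, by -1.12. The list median was -0.55, with 0 of 19 genes positive, without LP replicate 1.

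**Figure D2:**
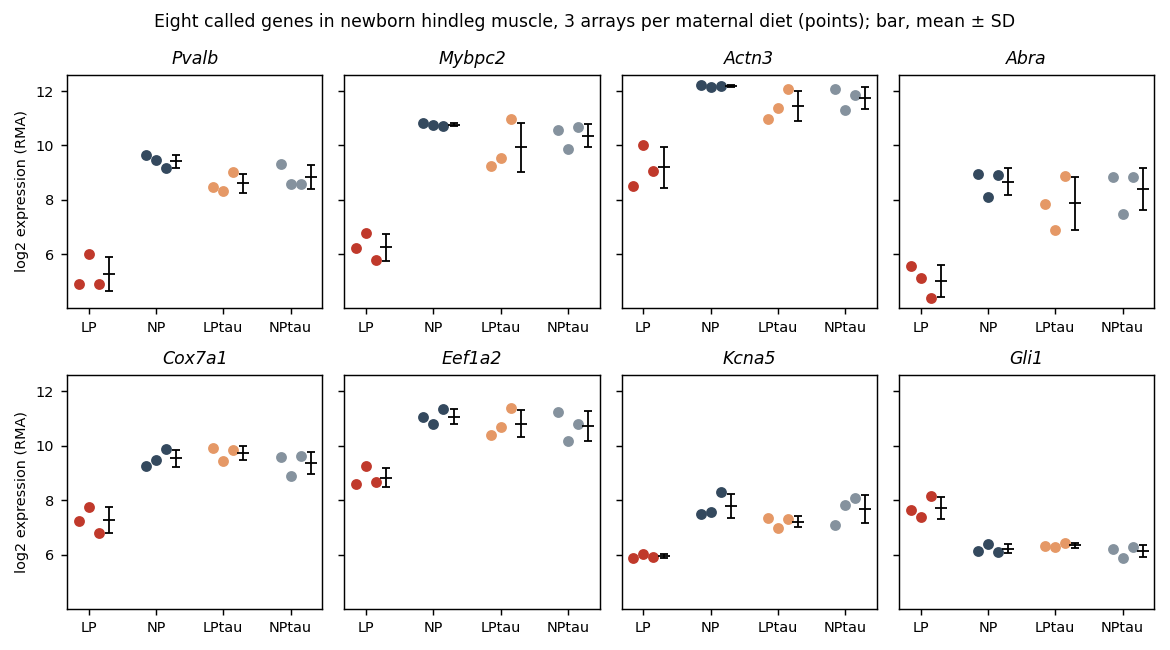
Log2 expression of 8 called genes in the 3 arrays (points) of each maternal diet, LP, NP, LPtau and NPtau, with mean ± SD as bars. LP lies apart from NP in each of the 8 genes, and the LPtau values overlap those of NPtau.

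Slow and developmental fibre genes showed smaller differences. Of 20 genes of slow fibres 0 passed and 13 were negative, with a median of -0.26 that was -0.06 without LP replicate 1 and -0.42 without LP replicate 2. Smtnl1, a smoothelin-like protein, was at 8.19, 8.77 and 7.66 in LP arrays, against 9.44, 10.03 and 9.96 in NP arrays (-1.61, SE 0.29; adjusted p = 0.0618 with limma). Myl2 and Myh7, the slow light and heavy chains of myosin, differed by -1.25 (SE 0.33) and -0.96 (SE 0.31), and in both the LP values lay below the NP values. The slow troponins differed less: Tnni1 by 0.05 (SE 0.21), Tnnt1 by -0.16 (SE 0.22) and Tnnc1 by 0.35 (SE 0.23), with overlapping groups. Of 17 embryonic and perinatal isoforms 0 passed, 13 were negative and 5 (29.4%) had LP values below NP, against 11.6% of all genes. Their median of -0.22 was -0.03 without LP replicate 1 and -0.38 without LP replicate 2. Myh3 differed by -0.22 (SE 0.20), Myh8 by -0.29 (SE 0.24) and Actc1, the cardiac actin of fetal muscle, by -0.21 (SE 0.18). Mybph, a homologue of myosin-binding protein, differed by -0.86 (SE 0.27).

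Several genes that fell belong to pairs in which an adult muscle isoform replaces, or stands beside, a more widespread or slower partner, and the partner differed less in the values. Cox7a1, the heart and muscle isoform of subunit 7a of cytochrome c oxidase, was at 7.23, 7.77 and 6.80 in LP arrays, against 9.26, 9.48 and 9.88 in NP arrays. It fell by 2.27, a 4.84-fold lower level (SE 0.28; adjusted p = 0.0211 with limma). Its widespread partner Cox7a2 was at 12.62, 13.00 and 12.70 in LP arrays, against 13.09, 13.16 and 13.25 in NP arrays, a difference of -0.39 (SE 0.15). Eef1a2, the elongation factor isoform of adult muscle and neurons, was at 8.58, 9.24 and 8.67 in LP arrays, against 11.05, 10.82 and 11.36 in NP arrays. It fell by 2.25 (SE 0.32; adjusted p = 0.0314 with limma). The widespread Eef1a1 was at 14.36, 14.29 and 14.35 in LP arrays, against 14.17, 14.28 and 14.01 in NP arrays, a difference of 0.18 (SE 0.14). Mybpc1, the partner of Mybpc2, differed by -0.41 (SE 0.19) and Actn2, the partner of Actn3, by -0.27 (SE 0.21). Cox6a2 and Cox6a1, the muscle and the widespread isoform of another oxidase subunit, differed by -0.71 (SE 0.23) and -0.32 (SE 0.17). Among calcium pumps Atp2a1 of fast fibres differed by -0.52 (SE 0.24) and Atp2a2 of slow fibres by 0.04 (SE 0.22). Chrne and Chrng, the adult and fetal subunits of the acetylcholine receptor, differed by -0.03 (SE 0.14) and 0.00 (SE 0.42). Mybpc2, Actn3, Cox7a1 and Eef1a2 were themselves called in these data, so a smaller difference in their partners follows in part from that choice. The difference within a pair was not tested.

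**Figure D3:**
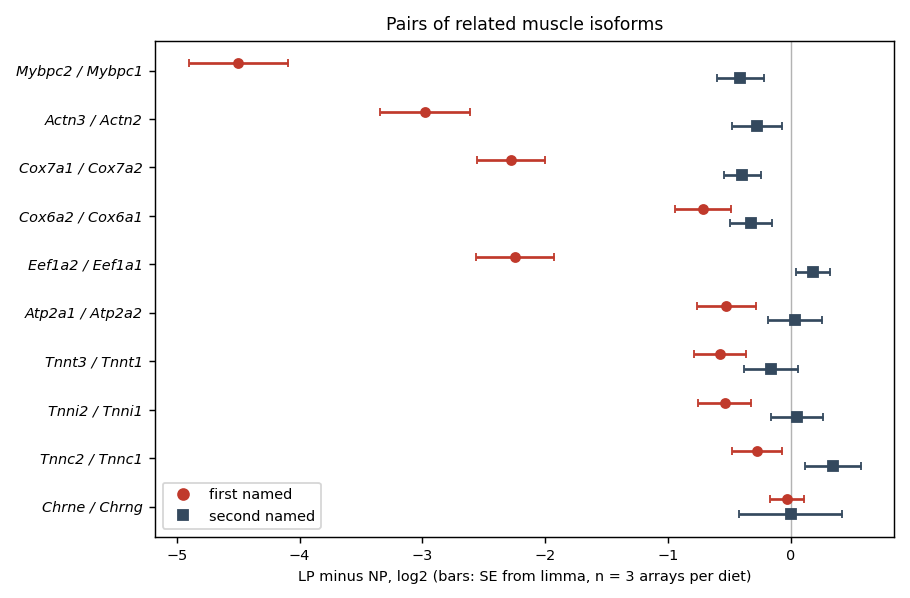
LP minus NP on the log2 scale for 10 pairs of related muscle isoforms, with the standard error from limma as bars (3 arrays per diet). Mybpc2, Actn3, Cox7a1 and Eef1a2 lie between -4.50 and -2.25, while their partners lie between -0.41 and 0.18.

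Genes of the sarcomere scaffold and of membrane excitation were lower as groups, with few calls. Of 33 scaffold genes of the sarcomere, Z-disc and M-band 0 passed and 31 were negative, with a median of -0.58. In 19 (57.6%) the LP values lay below NP, against 11.6% of all genes. Nrap, an actin-binding protein of nascent myofibrils, was at 9.10, 10.05 and 9.64 in LP arrays, against 11.08, 10.65 and 10.73 in NP arrays (-1.22, SE 0.26). Tcap, which caps titin at the Z-disc, was at 9.89, 9.87 and 9.34 in LP arrays, against 10.98, 10.80 and 10.69 in NP arrays (-1.12, SE 0.25). The median of the scaffold genes was -0.27 without LP replicate 1. Of 33 genes of excitation-contraction coupling 2 fell, 0 rose and 31 did not pass, with a median of -0.51 that was -0.14 without LP replicate 1. Kcna5, a voltage-gated potassium channel, was at 5.89, 6.02 and 5.93 in LP arrays, against 7.50, 7.56 and 8.30 in NP arrays, a difference of -1.84 (SE 0.26; limma adjusted p = 0.0314). Fxyd1, the phospholemman that regulates the sodium pump, was at 9.66, 10.13 and 9.81 in LP arrays, against 10.97, 10.83 and 10.93 in NP arrays, a difference of -1.04 (SE 0.16; limma adjusted p = 0.0453). Trdn, the triadin that anchors calsequestrin to the calcium release channel, differed by -0.91 (SE 0.25). Of 13 genes of the dystrophin complex 0 passed and 12 were negative, with a median of -0.33 that was -0.16 without LP replicate 1 and -0.54 without LP replicate 2. Of 18 genes of the neuromuscular junction 0 passed and 12 were negative, with a median of -0.22 that was 0.00 without LP replicate 1 and -0.35 without either LP replicate 2 or LP replicate 3.

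Genes that answer to load and stretch were split. Abra, an actin-binding protein of striated muscle that acts on serum response factor, was at 5.55, 5.12 and 4.40 in LP arrays, against 8.97, 8.09 and 8.93 in NP arrays. It fell by 3.64 (SE 0.52; adjusted p = 0.0314 with limma), and the LP values lay near the array median. Ankrd2 and Ankrd1, titin-bound ankyrin proteins, differed by -2.05 (SE 0.40; adjusted p = 0.0839 with limma) and -1.91 (SE 0.47; adjusted p = 0.138 with limma), and in both the LP values lay below the NP values. Csrp3, a LIM protein of the Z-disc, differed by -0.81 (SE 0.28). Klf4 differed by 0.89 with overlapping groups, being highest in LP replicate 1 at 11.81, the array with the skin genes. Of 28 genes of this list 1 fell, 0 rose and 13 were positive, and the median of 0.00 was -0.27 without LP replicate 1. Of 30 genes of myogenic control 0 passed, and the median of -0.13 was 0.06 without LP replicate 1 and -0.29 without LP replicate 2. Myod1, Myog, Myf5 and Myf6, the myogenic transcription factors, differed by -0.42 (SE 0.26), -0.26 (SE 0.31), -0.32 (SE 0.40) and -0.48 (SE 0.21). Fst, the follistatin that binds myostatin and activin, was at 9.12, 8.72 and 8.74 in LP arrays, against 8.34, 8.21 and 8.03 in NP arrays (0.67, SE 0.20; adjusted p = 0.221 with limma).

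RNA levels of energy metabolism genes were lower in LP across nearly the whole measured set, with list medians between -0.65 and -0.31. The lists of complex I, complexes II and III, complex IV, ATP synthase, the citric acid cycle and fatty acid oxidation held 146 genes, of which 142 were negative. In 101 of the 146 (69.2%) the LP values lay below the NP values, against 11.6% of all genes, and in 1 they lay above. Of the 146, Cox7a1 fell and 145 did not pass. The median was -0.65 for fatty acid oxidation, -0.60 for the citric acid cycle, -0.52 for complexes II and III, -0.51 for complex I, -0.38 for complex IV and -0.31 for ATP synthase. Without LP replicate 1 these medians were -0.57, -0.52, -0.42, -0.36, -0.29 and -0.21.

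Ndufb10, a subunit of complex I, was at 10.45, 10.95 and 10.55 in LP arrays, against 11.38, 11.48 and 11.78 in NP arrays (-0.89, SE 0.18; adjusted p = 0.0839 with limma). Sdhb, the iron-sulfur subunit of succinate dehydrogenase, was at 10.81, 11.33 and 10.97 in LP arrays, against 11.65, 11.77 and 11.72 in NP arrays (-0.68, SE 0.17). Dlat, a subunit of pyruvate dehydrogenase, differed by -0.86 (SE 0.18). Its groups did not overlap, nor did those of the 2 genes before it. Pdk4, the kinase that shuts off pyruvate dehydrogenase, was at 7.83, 7.90 and 7.16 in LP arrays, against 10.18, 11.09 and 10.67 in NP arrays (-3.02, SE 0.62; adjusted p = 0.0930 with limma). Acadvl, the first enzyme of the oxidation of very long chain fatty acids, differed by -0.86 (SE 0.23). Atp5g1, a membrane subunit of ATP synthase, differed by -0.94 (SE 0.22), with 1 of its 2 probe sets pointing that way. The gene of this set with LP values above NP was Cox7c, an oxidase subunit, at 7.96, 7.84 and 7.38 in LP arrays, against 6.00, 5.91 and 6.52 in NP arrays (1.59, SE 0.42; adjusted p = 0.161 with limma), and both of its probe sets pointed that way. Lipt1, which attaches lipoic acid to the dehydrogenases of this pathway, fell by 1.15 (SE 0.18; adjusted p = 0.0409 with limma) with 2 of its 3 probe sets pointing that way. Its LP values of 4.76, 5.28 and 4.79 lay near the array median.

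Other mitochondrial and glycolytic genes followed in the values. Of 73 genes of the mitochondrial ribosome 0 passed and 71 were negative (median -0.37). LP values lay below NP in 33 (45.2%), against 11.6% of all genes. The median was -0.23, with 12 positive, without LP replicate 1. Mrpl42, a protein of its large subunit, was at 9.96, 10.67 and 10.25 in LP arrays, against 11.24, 11.32 and 11.60 in NP arrays (-1.09, SE 0.20), with 1 of its 2 probe sets pointing that way. Of 35 genes of glycolysis, glycogen use and the phosphagen system 0 passed and 32 were negative. Their median of -0.59 was -0.41 without LP replicate 1 and -0.79 without LP replicate 2. LP values lay below NP in 24 (68.6%), against the same 11.6%. Ckmt2, the creatine kinase of muscle mitochondria, was at 8.82, 9.99 and 9.35 in LP arrays, against 11.26, 11.37 and 11.69 in NP arrays (-2.05, SE 0.37; adjusted p = 0.0622 with limma). Ckm, the cytosolic muscle creatine kinase, differed by -0.55 (SE 0.17). Phkb and Phkg1, subunits of the phosphorylase kinase that starts glycogen breakdown, differed by -1.08 (SE 0.22) and -1.48 (SE 0.32). Slc2a4, the insulin-regulated glucose transporter, was at 8.49, 8.92 and 8.62 in LP arrays, against 9.41, 9.52 and 9.20 in NP arrays (-0.70, SE 0.16; adjusted p = 0.115 with limma). Slc2a1, the widespread glucose transporter, was at 10.76, 8.31 and 9.08 in LP arrays, against 7.58, 7.11 and 7.80 in NP arrays (1.89, SE 0.67), highest in LP replicate 1. Ppargc1a, a coactivator of mitochondrial biogenesis, differed by -0.91 (SE 0.78) with overlapping groups.

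Of the hedgehog pathway, Gli1 rose in LP muscle and most other measured genes had positive differences that did not pass. Gli1, a transcription factor of the pathway and itself one of its targets, was at 7.63, 7.37 and 8.14 in LP arrays, against 6.14, 6.41 and 6.11 in NP arrays. It rose by 1.50, a 2.82-fold higher level (SE 0.19; adjusted p = 0.0213 with limma), and the groups were separate. Ptch1, the hedgehog receptor and another target, was at 10.74, 9.17 and 10.18 in LP arrays, against 8.46, 8.71 and 8.75 in NP arrays (1.39, SE 0.32; adjusted p = 0.114 with limma), with 2 of its 3 probe sets pointing that way. Hhip, a decoy receptor for the ligands, was at 6.47, 6.19 and 6.09 in LP arrays, against 5.11, 5.74 and 5.56 in NP arrays (0.78, SE 0.23). Smo, the transducer that Ptch1 holds in check, differed by 0.34 (SE 0.12). Sufu, which restrains the Gli factors, was at 7.40, 7.31 and 7.36 in LP arrays, against 6.81, 6.65 and 6.82 in NP arrays (0.59, SE 0.12; adjusted p = 0.0945 with limma), with 2 of its 3 probe sets pointing that way. In each of these 5 genes the LP values lay above the NP values.

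Of 16 measured hedgehog genes 1 rose, 0 fell and 15 did not pass. The median was 0.38 and 14 were positive, and in 7 (43.8%) the LP values lay above NP, against 7.99% of all genes. The 3 ligands, named here after their values were seen, had overlapping groups: Shh differed by 0.77, Ihh by 0.17 and Dhh by -0.21. The list mean was 0.79, 0.28 and 0.41 above the NP mean in LP arrays, against -0.03, 0.02 and 0.01 in NP arrays. It was highest in LP replicate 1, which carried the skin genes and, with LP replicate 2, cartilage genes. Gli1 itself was highest in LP replicate 3, in which the skin and cartilage lists lay below the NP mean. The part of skin or cartilage in the values of Gli1 and of the list was not tested. Without LP replicate 1 the difference of Gli1 was 1.54 (adjusted p = 0.0294 with limma) and the list median 0.22. Gli1 did not pass in a fit of the 6 LP and NP arrays alone or with the replicate number as a block (adjusted p = 0.0734 with limma). It also did not pass with sex as a covariate (adjusted p = 0.0549 with limma) or without any 1 of the NP replicates, where its adjusted p reached 0.169.

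**Figure D4:**
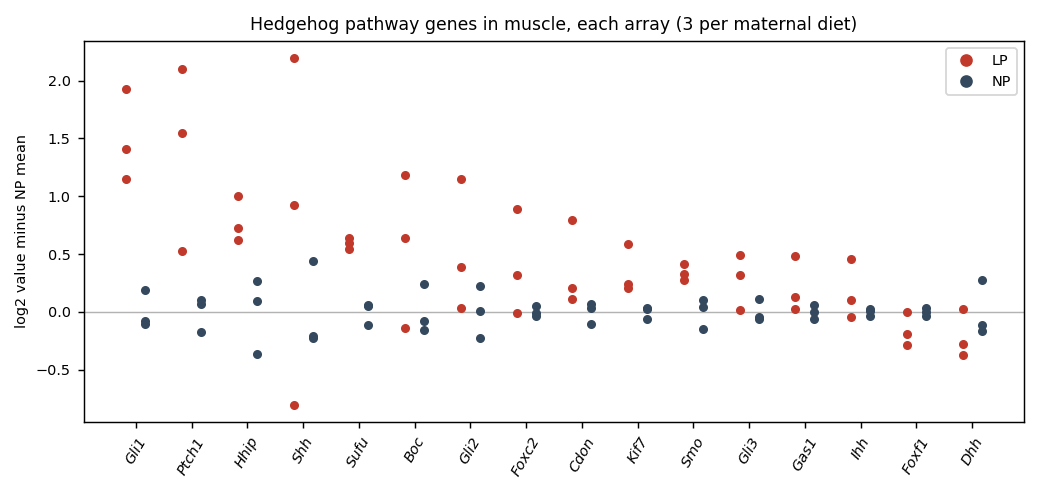
Log2 value of 16 hedgehog pathway genes in each of the 3 LP and 3 NP muscle arrays, minus the NP mean of the gene, ordered by the difference. The LP points lie above the NP points for 7 genes, with Gli1 and Ptch1 highest.

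Further genes that rose act on RNA and on protein turnover. Cpsf6, a subunit of the factor that selects sites of 3′ end cleavage, was at 9.82, 9.93 and 9.90 in LP arrays, against 9.15, 9.27 and 8.98 in NP arrays, and rose by 0.75 (SE 0.11; adjusted p = 0.0372 with limma), with 5 of its 6 probe sets pointing that way. Mbnl3, a muscleblind regulator of splicing, was at 8.17, 8.10 and 8.21 in LP arrays, against 7.55, 7.39 and 7.57 in NP arrays, and rose by 0.66 (SE 0.10; limma adjusted p = 0.0454). Mylip, which ubiquitinates the low density lipoprotein receptor, was at 9.35, 9.42 and 9.34 in LP arrays, against 8.74, 8.54 and 8.54 in NP arrays, and rose by 0.76 (SE 0.10; adjusted p = 0.0213 with limma). Of 16 alternatives, Cpsf6 kept its call in 7, Mbnl3 in 3 and Mylip in 8. Of 54 genes of splicing and 3′ end processing 2 rose, 0 fell, 52 did not pass and 42 were positive (median 0.17). LP values lay above NP in 14 (25.9%), against 7.99% of all genes, and the median was 0.07 without LP replicate 3. The splicing factor Rbm20 of striated muscle stood against this at 6.47, 7.36 and 6.95 in LP arrays and 8.15, 7.68 and 8.07 in NP arrays (-1.04, SE 0.22). Of 43 cytosolic ribosomal proteins 0 passed and 38 were positive (median 0.14), with LP values above NP in 26 (60.5%), against 7.99% of all genes. Rps25 was at 8.59, 8.44 and 8.42 in LP arrays, against 7.66, 7.44 and 7.50 in NP arrays (0.95, SE 0.30). Rpl3l, the paralogue of Rpl3 found in striated muscle, was at 5.26, 5.29 and 5.37 in LP arrays, against 7.39, 8.18 and 8.48 in NP arrays (-2.70, SE 0.46; adjusted p = 0.0585 with limma). Medians of other signalling and nuclear lists were 0.20 for 18 Notch genes, 0.17 for 30 Wnt genes, 0.16 for 35 chromatin modifiers and 0.15 for 35 genes of TGF-beta and BMP signalling, with 0 called in each. Without LP replicate 1 the median was 0.04 for the Wnt and 0.11 for the Notch genes, and that of TGF-beta and BMP genes was 0.09 without NP replicate 3.

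The 10 genes with the next smallest p among those higher in LP were Pard6g, Cstf3, Snord89, Zfp618, Myo5a, Ctnnal1, Arhgef4, Ssbp3, Xpo1 and Bmt2, with adjusted p-values of 0.0585 to 0.0767 with limma. Their differences ran from 0.61 for Ssbp3 to 1.17 for Myo5a, a motor of vesicle transport. Cstf3, a further factor of 3′ end cleavage, differed by 0.72 and Xpo1, the exporter of proteins from the nucleus, by 0.67. The 10 next among those lower in LP were Znrd1as, Sox17, Ddo, Fam131a, Auh, Rpl3l, Lrrc2, Plekhf1, Hcfc1r1 and Fads3, with adjusted p-values of 0.0519 to 0.0593. Sox17, a transcription factor of endothelial cells, was at 6.38, 6.23 and 6.23 in LP arrays, against 7.11, 7.31 and 7.72 in NP arrays (-1.10, SE 0.18). Ddo, the D-aspartate oxidase, differed by -2.25 with 2 of its 4 probe sets pointing that way, and Auh, an enzyme of leucine breakdown, by -0.93 with all 6 of its probe sets pointing that way.

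The other genes that fell belong to varied functions. Azin1, the antizyme inhibitor that protects ornithine decarboxylase, was at 8.69, 9.05 and 8.70 in LP arrays, against 9.77, 9.77 and 9.80 in NP arrays, and fell by 0.97 (SE 0.14). Asb11, a substrate adaptor of a ubiquitin ligase, was at 5.40, 6.11 and 5.50 in LP arrays, against 7.65, 7.52 and 7.63 in NP arrays, and fell by 1.93 (SE 0.28). Pacsin3, a membrane-shaping protein of muscle, was at 9.01, 9.23 and 9.02 in LP arrays, against 10.36, 10.11 and 10.24 in NP arrays, and fell by 1.15 (SE 0.18). In these 3 genes the distance between the groups was wider than the range within either. C1qtnf9, a secreted relative of adiponectin, fell by 1.13 (SE 0.17). Cyp27a1, the sterol hydroxylase of mitochondria, fell by 0.92 (SE 0.13), and Tspan15, a tetraspanin that accompanies the protease ADAM10, by 0.87 (SE 0.10). Lcmt2, which modifies transfer RNA, fell by 1.19 (SE 0.19) and Frat2, a binding partner of the kinase GSK3, by 0.77 (SE 0.12). Shisa4 fell by 1.84 (SE 0.25) and Higd1b by 1.17 (SE 0.16). Higd1b was at 4.70, 4.64 and 4.32 in LP arrays, each below the array median, against 5.37, 5.90 and 5.90 in NP arrays. With the mean of all probe sets of a gene in place of its brightest, Cyp27a1 differed by -0.51, Azin1 by -0.64, Lipt1 by -0.42 and Cpsf6 by 0.33, and none of these 4 passed. Among the 10 genes of this group the adjusted p with the brightest probe set was between 0.0195 and 0.0453 with limma.

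Genes of protein breakdown and of the glucocorticoid response had small list medians. Of 35 genes of atrophy, ubiquitin ligation and autophagy Asb11 fell, 0 rose and 26 were negative (median -0.18). Of 31 proteasome genes 0 passed and 25 were negative, with a median of -0.04 that was 0.06 without LP replicate 1, where 22 were positive. Fbxo32, the ubiquitin ligase atrogin-1, was at 6.98, 5.84 and 5.48 in LP arrays, against 7.56, 7.66 and 7.99 in NP arrays (-1.64, SE 0.57; adjusted p = 0.307 with limma). Trim63, the ubiquitin ligase MuRF1, was at 7.43, 8.10 and 7.40 in LP arrays, against 8.46, 8.46 and 9.33 in NP arrays (-1.11, SE 0.39; adjusted p = 0.317 with limma). Both ligases had LP values below the NP values. Mt1, a metallothionein induced by glucocorticoids and metals, was at 10.28, 10.58 and 10.76 in LP arrays, against 11.85, 11.83 and 11.72 in NP arrays (-1.27, SE 0.29). Angptl4, a secreted inhibitor of lipoprotein lipase, was at 7.04, 5.53 and 5.92 in LP arrays, against 8.17, 9.10 and 8.59 in NP arrays (-2.46, SE 0.69). Of 21 glucocorticoid genes 0 passed and 15 were negative (median -0.18). Hspb6 and Hspb7, small heat shock proteins of muscle, differed by -2.17 (SE 0.51) and -1.48 (SE 0.34), within a list of 19 heat shock genes with 13 negative and 0 called.

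Amino acid, taurine and growth factor genes showed little that passed. Of 26 genes of the amino acid response of Atf4 0 passed and 14 were positive (median 0.04). Asns, the asparagine synthetase induced by amino acid shortage, was at 8.87, 9.90 and 9.50 in LP arrays, against 10.08, 9.48 and 9.49 in NP arrays (-0.26, SE 0.38). Its groups overlapped. Slc6a6, the taurine transporter, was at 10.10, 9.75 and 9.83 in LP arrays, against 9.40, 9.16 and 9.48 in NP arrays (0.55, SE 0.19; adjusted p = 0.289 with limma), with 3 of its 4 probe sets pointing that way. Cdo1 and Csad, enzymes of taurine synthesis from cysteine that were named after their values were seen, differed by -0.65 and 0.34, each without overlap of the groups. Of 21 genes of the IGF axis 0 passed, with a median of 0.06 that was 0.17 without LP replicate 1. Igf1 differed by -0.20 (SE 0.23), Igf2 by -0.10 (SE 0.13), Igf1r by 0.32 (SE 0.22) and the insulin receptor Insr by -0.35 (SE 0.19). Igfbp5, a binding protein of IGFs that is abundant in muscle, was at 12.15, 12.50 and 12.26 in LP arrays, against 11.67, 11.75 and 11.98 in NP arrays (0.50, SE 0.23).

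Markers of vessels and fat cells had mostly negative differences. Of 18 endothelial genes 0 passed and 17 were negative (median -0.47), with LP values below NP in 7 (38.9%). The share over all genes was 11.6%, here and for the fat cell and interferon lists below. Esam, an adhesion molecule of endothelial junctions, was at 7.97, 7.24 and 7.59 in LP arrays, against 8.98, 8.93 and 8.71 in NP arrays (-1.27, SE 0.27; adjusted p = 0.0965 with limma). Of 19 fat cell genes 0 passed and 17 were negative (median -0.73), with LP values below NP in 9 (47.4%). Without NP replicate 2 that median was -0.36. Plin4, a coat protein of lipid droplets that muscle also makes, was at 7.83, 8.86 and 7.78 in LP arrays, against 9.47, 9.89 and 9.997 in NP arrays (-1.63, SE 0.49). Thrsp, a gene of fat synthesis induced by thyroid hormone, was at 6.09, 7.16 and 5.47 in LP arrays, against 8.33, 8.75 and 9.35 in NP arrays (-2.57, SE 0.65), with 2 of its 3 probe sets pointing that way. Of 21 interferon-induced genes 0 passed and 19 were negative (median -0.34), with LP values below NP in 12 (57.1%), and 6 of the 21 lay below the array median in NP. Of 15 satellite cell genes 0 passed and none separated the groups, with a median of -0.16 that was 0.01 without LP replicate 1. The part of fat and endothelial cells in the energy and fatty acid genes was not tested.

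The same protein contrast under taurine, LPtau against NPtau, shares no array with LP against NP. There 0 of 18193 genes passed with limma (0%), and 992 (5.45%) had an unadjusted p under 0.05. Over the 23 called genes the median size of the difference was 1.17 for LP against NP and 0.21 for LPtau against NPtau. Of the 23, 17 had the same sign under taurine and 4 had groups that did not overlap there, which held for 10.4% of all genes: Tspan15, Frat2 and Mbnl3 in the same direction and Mylip in the opposite one. Pvalb was at 8.49, 8.34 and 9.01 in LPtau arrays, against 9.34, 8.57 and 8.58 in NPtau arrays, and Cox7a1 at 9.93, 9.44 and 9.85 in LPtau arrays, against 9.57, 8.90 and 9.64 in NPtau arrays. Gli1 was at 6.31, 6.27 and 6.44 in LPtau arrays, against 6.19, 5.87 and 6.29 in NPtau arrays. The groups overlap in each of these 3 genes. Among genes that did not pass without taurine, Ankrd1 differed by -1.46 and Sox17 by -0.50 between LPtau and NPtau, both without overlap of the groups, and Angptl4 by -2.10 with overlap.

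The difference between the 2 contrasts was itself tested as the interaction of protein and taurine, and 0 genes passed with limma, with 1194 (6.56%) at an unadjusted p under 0.05. Among the 23 called genes 21 had an unadjusted interaction p under 0.05, but they had been chosen for a large LP against NP difference, which is part of the interaction. The smallest adjusted p was 0.0544, for Pvalb (interaction 3.93). Without LP replicate 2, 5 genes passed, and 1 without LPtau replicate 1 or NPtau replicate 1. The lowest array weights among the 12 muscle arrays were 0.17 for LPtau replicate 1, 0.32 for LP replicate 1 and 0.48 for NPtau replicate 2. List medians under taurine were 0.02 for fast fibre genes, 0.22 for complex I, 0.16 for complexes II and III and ATP synthase, and 0.15 for hedgehog genes, against -0.81, -0.51, -0.52, -0.31 and 0.38 without taurine. For the other energy lists they were 0.15 for complex IV, -0.09 for the citric acid cycle and -0.26 for fatty acid oxidation under taurine, against -0.38, -0.60 and -0.65 without. The mean of the complex I genes, relative to the NP mean, was -0.001, 0.007 and 0.101 in LPtau arrays. In NPtau arrays it was 0.008, -0.470 and -0.004. NPtau replicate 2 was also the lowest taurine array for complexes II and III (-0.48) and ATP synthase (-0.46). List medians without a taurine array were not computed. Medians with and without taurine lay closer for endothelial genes (-0.41 under taurine, -0.47 without), for interferon-induced genes (-0.37 and -0.34) and for ribosomal proteins (0.13 and 0.14). The mean of the ribosomal proteins, relative to the NP mean, was 0.06, 0.04 and 0.01 in LPtau arrays. In NPtau arrays it was -0.04, -0.30 and -0.02, so NPtau replicate 2 stood apart here too.

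**Figure D5:**
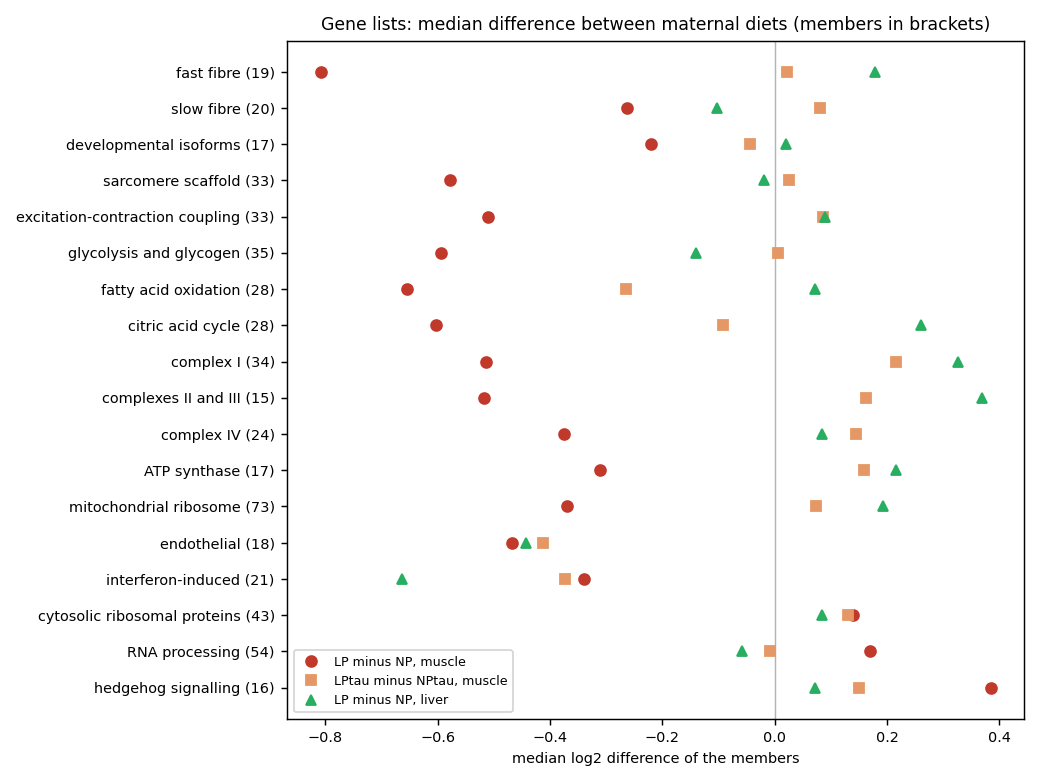
Median log2 difference of the members of 18 gene lists for LP minus NP in muscle, LPtau minus NPtau in muscle and LP minus NP in liver. For fast fibre genes the 3 medians are -0.81, 0.02 and 0.18, for complex I they are -0.51, 0.22 and 0.33, and for endothelial genes they are -0.47, -0.41 and -0.44.

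Muscle was set against liver by testing whether LP minus NP differed between the tissues, in a fit of all 24 arrays that uses the same LP and NP muscle arrays. The fit took all arrays as independent. Sex was read alike in the liver and muscle arrays of one diet and replicate number in 12 of 12 cases, so these may share a pup. Of 18193 genes 354 passed (1.95%), 133 with a higher (0.731%) and 221 with a lower difference (1.21%) in muscle than in liver, and 3108 (17.1%) had an unadjusted p below 0.05. With a replicate number left out in both tissues that count was 61 without NP replicate 1, 177 without NP replicate 2, 79 without NP replicate 3 and 89 without LP replicate 3. Of the 23 called genes 18 passed, and 8 of the 23 had the same sign in liver. These 23 were chosen for a large difference in muscle, which is part of the difference between the tissues. The genes without a test result past the threshold were Mylip, Azin1, Cyp27a1, Cpsf6 and Lcmt2. Azin1 differed by -0.97 in muscle and -1.07 in liver. Complex I genes had opposite signs in the tissues, with 0 of 34 positive in muscle (median -0.51) and 33 of 34 positive in liver (median 0.33), where 57.6% of all genes were positive. Over the 146 energy genes 142 were negative in muscle and 29 were negative in liver. Ndufb10 differed by -0.89 in muscle and 0.54 in liver (difference between the tissues -1.43; adjusted p = 0.00257 with limma). Sdhb differed by -0.68 in muscle and 0.70 in liver (difference between the tissues -1.38; adjusted p = 0.0124 with limma). Endothelial and interferon-induced genes had medians of the same sign in both tissues, -0.47 and -0.34 in muscle and -0.44 and -0.66 in liver.

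A further 10092 probe sets have no single gene symbol in the platform annotation. Of these 4 passed with limma (0.0396%), each of them with a higher level in LP, while 906 (8.98%) fell below an unadjusted p of 0.05.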

How the data were processed

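The authors deposited 1 log2 value for each probe set and array. According to the submitters' processing notes these come from RMA under R 2.7.0; MAS5 is listed too, without its role. The scanner files were not used here, so the precision is limited by the 3 arrays per diet. Gene names are those of the platform annotation, checked through RefSeq GRCm38.p6: of 45101 probe sets 34945 have 1 symbol, 932 several and 9160 none, and 64 are controls. Of those with 1 symbol, 34741 matched by gene ID. Each of 18193 genes was given its probe set of highest mean over the 12 muscle arrays. The contrast LP minus NP was fitted with limma 3.58.1 (R 4.3.3) to 4 diet means, Benjamini-Hochberg adjusted over all genes, and called at an adjusted p under 0.05. The smallest two-sided p of an exact test of 3 against 3 arrays is 0.1, so none was used. The fit was tested on simulated data. Liver and muscle arrays were normalized separately, so only differences within a tissue were compared. Members and the 61 gene lists were chosen with earlier results of these data known. Named genes are the called genes, the 10 next in each direction, the called and up to 4 further members of each list by p, and a panel of muscle, growth and isoform genes; not every gene so chosen is printed. The alternatives were other normalizations, filters, probe set rules, array weights, sex, replicate number and leaving out arrays.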

Additional observations from a re-analysis of the deposited data

Results flagged for a closer look

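Of 118 genes named above, 47 had an LP minus NP difference that differed between muscle and liver at an adjusted p under 0.05 with limma, 39 with a lower and 8 with a higher difference in muscle. Over all genes 1.95% did so. The named genes were chosen largely for a small p in the same muscle arrays, whose difference is part of this one, so their share is not evidence of its own. All values here are the muscle difference minus the liver difference on the log2 scale. Groups of 3 arrays are too small for a test of single arrays.

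Genes of fast and contractile muscle gave -4.42 for Mybpc2, -4.35 for Pvalb, -3.30 for Actn3, -2.18 for Myh4, -1.94 for Myh2, -1.62 for Myh1, -1.39 for Mylk2 and -0.92 for Mybpc1. Scaffold and stretch genes gave -3.70 for Abra, -2.86 for Ankrd2, -1.91 for Smtnl1, -1.45 for Nrap and -1.21 for Tcap. The membrane genes Kcna5 and Fxyd1 gave -1.96 and -1.10.

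Energy genes gave -2.37 for Cox7a1, -1.91 for Ckmt2, -1.63 for Mrpl42, -1.60 for Phkg1, -1.54 for Atp5g1, -1.43 for Ndufb10, -1.38 for Sdhb, -1.24 for Auh, -1.18 for Lipt1 and -1.15 for Dlat. Ndufb10, Sdhb, Atp5g1 and Mrpl42 differed by 0.54, 0.70, 0.61 and 0.54 in liver.

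The remaining lower genes gave -2.79 for Rpl3l, -2.41 for Lrrc2, -2.20 for Eef1a2, -2.18 for Ddo, -2.03 for Shisa4, -1.78 for Asb11, -1.56 for Higd1b, -1.48 for Mt1, -1.47 for Pacsin3, -1.31 for Fam131a, -1.25 for Znrd1as, -1.15 for Frat2, -1.13 for Tspan15 and -1.05 for C1qtnf9.

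Genes with a higher difference in muscle gave 2.72 for Fst, 1.44 for Myo5a, 1.37 for Bmt2, 1.32 for Gli1, 1.30 for Pard6g, 1.20 for Mbnl3, 1.01 for Arhgef4 and 0.86 for Xpo1. Fst differed by 0.67 in muscle and -2.05 in liver, so most of its value came from liver.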

How the results depend on the processing

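None of the 23 called genes changed direction under the alternatives run, but 19 of 61 list medians changed sign when 1 array was left out, 10 of them without LP replicate 1. Without LP replicate 1 the median of skin genes was -0.39 in place of 1.17 and that of myogenic regulators 0.06 in place of -0.13, without LP replicate 2 that of bone genes was -0.12 in place of 0.35, and without LP replicate 3 that of tendon genes was 0.46 in place of -0.25. The 23 genes called for LP against NP became 14 in a fit of the 6 LP and NP arrays alone (7 shared), 62 after quantile and 65 after cyclic loess normalization (22 shared each), 39 with a filter on low values (22 shared), 38 with the mean of a gene's probe sets (17 shared), 7 probe sets when each was tested, 789 with array weights (23 shared) and 5 with sex as a covariate, namely Pvalb, Mybpc2, Cox7a1, Tspan15 and Actn3. Added after seeing the data, leaving out LPtau replicate 1 and NPtau replicate 2 gave 103 and an adjusted p under 0.1 gave 115. Without 1 array the count ran from 2 to 126. With the replicate number as a block it was 2 (Pvalb and Mybpc2), and the 4 called probe sets without a single symbol became 2. Deviations of same-numbered LP and NP arrays correlated at 0.21, 0.34 and -0.14, so the numbers were not taken to pair the samples. For the protein by taurine interaction, 1 gene was called after quantile or cyclic loess normalization, with the filter, or with an intensity trend and robust spread, and 4 with array weights. Without 1 array that count ran from 0 to 5. The 354 genes that differed between muscle and liver ran from 61 to 453 without 1 replicate number. They became 482 with the liver and muscle arrays of one diet and replicate number as a block (correlation 0.08). Of 4861 further values of single genes, 161 lost a call, 237 gained one, 53 moved and 4410 were counted as the same. Only the 23 called genes, with 16 values each, could lose a call, so the 161 are to be read against those values and not against all 4861. Mbnl3 lost its call in 13 of its 16 values, and Pvalb and Mybpc2 in 0. For a called gene, the same meant that it kept its direction and its call. For any other gene it meant a value within the pooled SD of the main value, whatever its sign. Of 1098 values of lists, 92 moved. The causes of these changes were not tested. Genes near the array median have little room to be lower, and 3 arrays per diet limit the precision.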
